A study of Mus musculus with 9 samples.

Results

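Lysosomal hydrolases and membrane proteins, 38 genes written as a list by name, were followed through the single-cell transcriptomes of the adult mouse neurogenic niche. All 38 were found among the 32287 gene IDs counted. By role they comprised 1 regulator (Tfeb), 3 genes for acidification, 12 proteases, 8 glycosidases, 5 genes for lipid handling, 8 membrane proteins and progranulin (Grn).

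Lysosomes are acidic organelles in which hydrolases degrade proteins, glycans and lipids that arrive by endocytosis or autophagy. A proton pump, the V-ATPase, keeps the lumen acidic, and the transcription factor TFEB activates many lysosomal genes by binding a short palindromic element in their promoters. In neural stem cells (NSCs) of the adult brain, quiescence is known to go along with large lysosomes that hold protein aggregates, and these are cleared when the cells activate.

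The data were droplet 3′ single-cell RNA-seq libraries of TiCY mice, in which tamoxifen activates a Cre recombinase driven by the Tlx (Nr2e1) promoter and thereby labels NSCs and their progeny with eYFP. The strain name in the methods of the study also carries a Fas allele, which all groups share. Tamoxifen was given to every mouse. All mice were males on a C57BL/6 background. TiCY wild-type (WT) mice were set against TiCY-IFNAGRKO mice (KO), which are IFNAR-/- IFNGR-/- and so lack the type-I and type-II interferon receptors. WT young mice were 16 weeks old, with tamoxifen at 10 weeks and a 6-week chase. WT old mice were 80 weeks old, with tamoxifen at 71 weeks and a 9-week chase. KO young mice were 16 weeks old, with tamoxifen at 7 weeks and a 9-week chase. KO old mice were labelled 92 to 105 weeks old, with tamoxifen at 85 or 98 weeks and a 9-week chase, which does not add up to the labelled ages. The 9 samples comprised 4 expression libraries, 4 libraries of antibody hashtags that mark the mouse and the tissue, and 1 sample with no group in its label, not used here. Each group was 1 reaction of 2 mice, so that age or genotype cannot be told apart from the reaction. Cells had been sorted from the ventricular-subventricular zone (vSVZ) as eYFP+ or GLAST+ cells. The olfactory bulb, rostral migratory stream and striatum were pooled, and from these eYFP+ and eYFP− PSA-NCAM low cells had been sorted.

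After filtering, 18055 cells remained, from 2396 in WT old to 6461 in KO young, with median depths of 5026 to 7393 UMIs (unique molecular identifiers, counted once per captured mRNA). Only 5815 cells had a hashtag call. The targeted genes were lower in both KO libraries. In CPM, UMIs of a gene per 1000000 UMIs of the summed cells, Ifnar1 stood at 21.2 (young) and 28.6 (old) in WT against 8.08 and 6.56 in KO, and Ifngr1 at 46.9 and 85.4 against 2.88 and 4.4. Cell types were named from fixed markers after clustering without the lysosomal genes. They were 4979 quiescent NSC-like, 1022 activated NSC-like, 1116 transit-amplifying-progenitor-like (TAP-like), 6513 neuroblast-like, 641 neuron-like, 2024 olfactory ensheathing glia-like and 329 microglia-like cells, besides 82 oligodendrocyte-precursor-like (OPC-like), 134 oligodendrocyte-like and 104 endothelial-like cells. A cluster of 973 cells with quiescent markers failed the naming rule and is called the eYFP-rich cluster, since 50.2% of its cells held an eYFP UMI against 6.89% of quiescent NSC-like cells. The markers of the quiescent class, such as Aqp4 and Slc1a3, are shared with parenchymal astrocytes and do not separate them. The class pools cells of the vSVZ and of the rest of the brain wherever libraries are compared, and some of its clusters were led by Agt, Igfbp2 or Islr. As few of its cells held an eYFP UMI, against 71.7% of neuroblast-like and 91.6% of TAP-like cells, the other types are not shown to descend from these cells. Of endothelial-like and microglia-like cells, 6.73% and 4.86% held an eYFP UMI. Markers were not exclusive: in olfactory ensheathing glia-like cells the 8 markers of that type summed to 11364 to 13646 CPM over the mice, those of activated NSCs to 14661 to 18527 and those of oligodendrocytes to 6748 to 7952. The 8 microglial markers summed to 0 to 7.14 CPM in quiescent cells of the 8 mice, 4 of these markers being at 0 in every mouse, against 12955 to 15999 in microglia-like cells.

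The element that TFEB binds contains CACGTG, and its extended form used here was TCACGTGA. Both read the same on either strand, and every TCACGTGA also counts as a CACGTG. Promoter windows of 300 bases, from 250 before to 50 after an annotated start, were taken from RefSeq (GRCm38.p6). A window was found for 34 of the 38 genes, the others being Ctsb, Ctsh, Npc1 and Laptm4b. CACGTG occurred in a window of 12 of the 34 genes (35.3%), against 8.09% of 27025 genes with a window, and TCACGTGA in 6 of 34 (17.6%) against 1.12%. Among 54 further lysosomal genes with a window the shares were 25.9% and 11.1%. The windows with 2 or more matches and that of Atp6v0d1, which behaved unlike most of the list below, are shown around their matches, 5′ to 3′ on the strand of the gene, with CACGTG or TCACGTGA in capitals.

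Lamp1 (chr8:13159075-13159176, + strand): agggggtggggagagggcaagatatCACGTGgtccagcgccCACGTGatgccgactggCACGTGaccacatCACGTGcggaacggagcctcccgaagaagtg
Ctsa (chr2:164833736-164833808, + strand): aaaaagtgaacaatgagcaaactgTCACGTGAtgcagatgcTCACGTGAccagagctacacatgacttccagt
Ctsd (chr7:142387895-142387950, − strand): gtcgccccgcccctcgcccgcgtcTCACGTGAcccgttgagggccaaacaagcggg
Mcoln1 (chr8:3500423-3500504, + strand): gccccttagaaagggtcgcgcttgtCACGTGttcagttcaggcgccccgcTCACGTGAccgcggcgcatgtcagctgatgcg
Gla (chrX:134601169-134601255, − strand): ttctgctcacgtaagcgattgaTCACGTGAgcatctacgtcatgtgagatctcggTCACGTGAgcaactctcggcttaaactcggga
Atp6v0d1 (chr8:105566037-105566092, − strand): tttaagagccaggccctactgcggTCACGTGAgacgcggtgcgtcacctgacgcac

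Lamp1, which encodes the most abundant glycoprotein of the lysosomal membrane, had 4 matches, the first beginning 61 bases and the last 15 bases before the start. Ctsd, the aspartic protease cathepsin D, had 1 match 98 bases before the start, shown above, and another 245 bases before it. A match is a run of letters in a window and says nothing about binding in these cells.

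Lysosomal genes took a larger share of the mRNA in quiescent NSC-like cells than in activated NSC-like, TAP-like and neuroblast-like cells. The 38 genes summed to 7119 ± 316 CPM in quiescent cells (SD, n = 4 libraries), to 2889 ± 396 in activated NSC-like, to 1584 ± 24.4 in TAP-like and to 1711 ± 65.0 in neuroblast-like cells. The lowest quiescent library, at 6815, was above the highest activated library, at 3385. Activated cells were likewise above TAP-like cells in every library, whereas TAP-like and neuroblast-like libraries were close, at 1567 to 1620 against 1647 to 1790. The number of UMIs of the list per cell differed less: 40.4, 50.2, 56.2 and 48.3 in quiescent against 25.7, 39.6, 35 and 43.1 in activated cells of WT young and old and KO young and old. Quiescent cells were higher in each library, but the ranges overlapped, and activated cells were deeper, with a median of 11648.5 UMIs against 6953. TAP-like cells carried 18.9 to 21.9 and neuroblast-like cells 7.99 to 10.5, at median depths of 12801.5 and 5023 UMIs. In quiescent cells 41.5% of these UMIs came from 3 genes, Cd63 with 15.9%, Laptm4a with 13.3% and Psap with 12.2%. Cd63 is a tetraspanin of late endosomes and lysosomes, Laptm4a a lysosomal transmembrane protein, and Psap encodes prosaposin, the precursor of the saposins that assist sphingolipid breakdown.

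**Figure D1:**
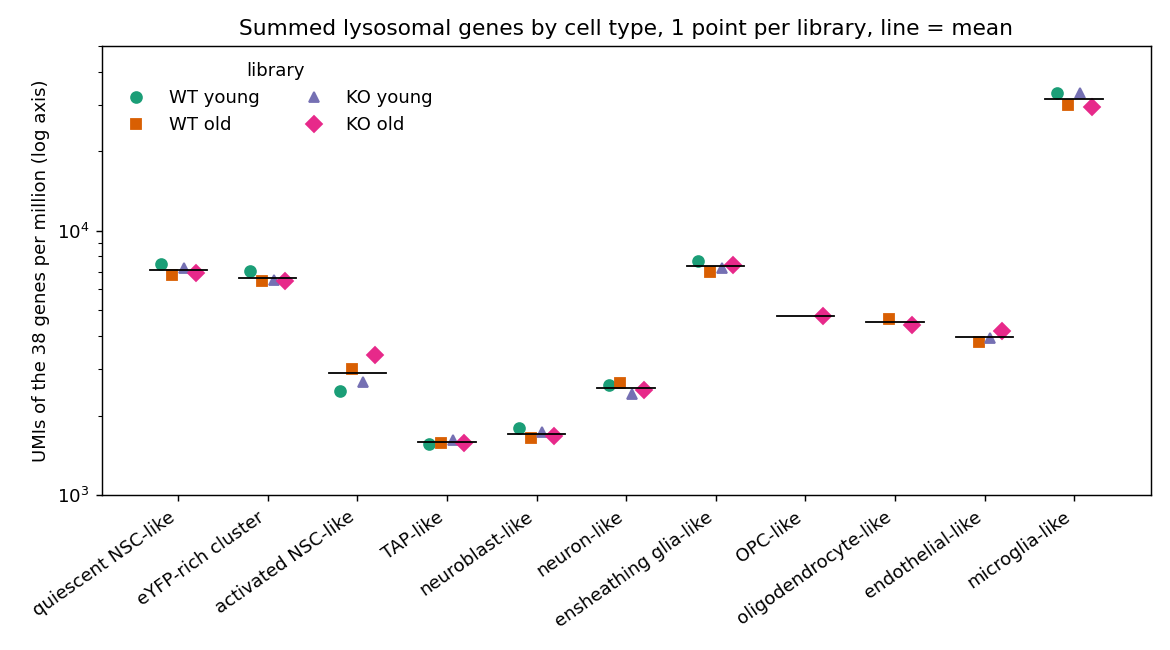
Summed level of the 38 lysosomal genes in CPM (log axis) in each cell type, 1 point per library and a line at the mean. Quiescent NSC-like libraries lie between 6815 and 7517, TAP-like libraries between 1567 and 1620, and microglia-like libraries between 29338 and 33334.

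Outside the lineage, microglia-like cells were highest with 31448 ± 2079 CPM, and olfactory ensheathing glia-like cells, at 7334 ± 304, overlapped quiescent cells. Neuron-like cells were at 2548 ± 104 and endothelial-like cells at 3973 ± 202 (n = 3). Oligodendrocyte-like cells, at 4654 and 4391 in the 2 old libraries, and OPC-like cells, at 4781 in KO old alone, had too few cells elsewhere. Among the types with at least 2 libraries, 22 of the 38 genes had their highest mean level in microglia-like cells, 6 in oligodendrocyte-like, 4 in olfactory ensheathing glia-like, 3 in neuron-like, 2 in quiescent (Ctsf and Ctso) and 1 in endothelial-like cells.

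**Figure D2:**
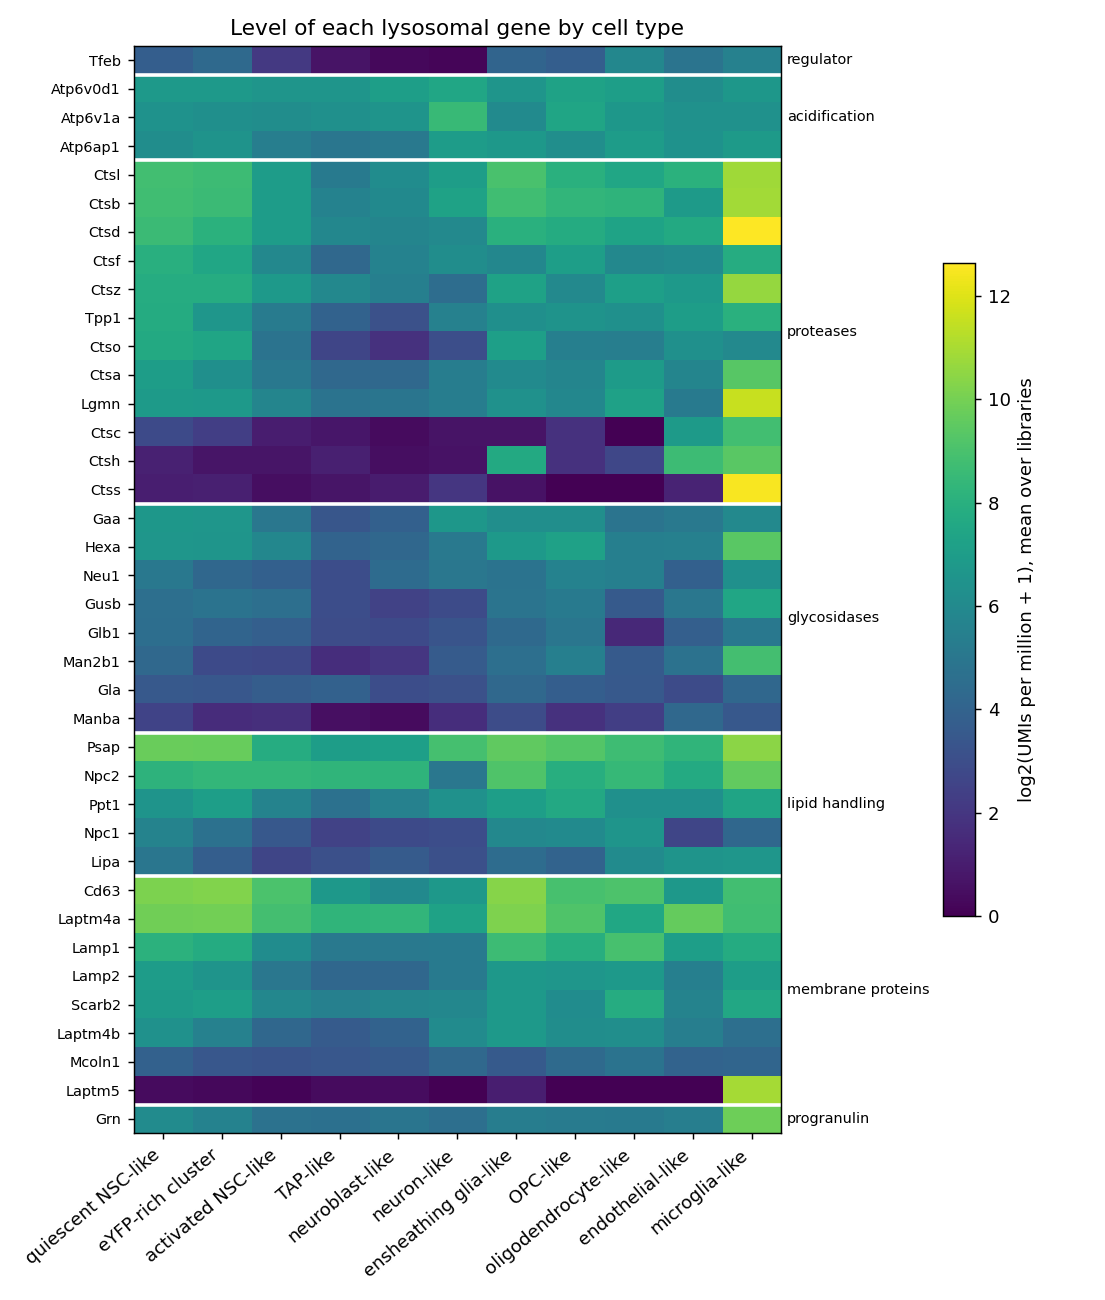
Mean level over libraries of each of the 38 genes (rows, grouped by role) in 11 cell types (columns), as log2(CPM + 1). Most rows are brighter in quiescent than in TAP-like or neuroblast-like cells, Atp6v0d1 and Atp6v1a differ little among these types, and Ctss and Laptm5 are brightest in microglia-like cells.

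Levels were then compared type against type within libraries, with UMIs summed per type and library and the library as a block (edgeR quasi-likelihood test, adjusted over all genes). Log2 fold changes were centred by TMM, a scaling that sets most genes near 0, and are positive where the type named first is higher. They are given with their standard error and n = 4 libraries. Ctsh, Ctss and Laptm5 did not pass the low-count filter in the lineage, which left 35 genes.

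Quiescent against neuroblast-like cells gave the widest gap. Of the 35 genes, 33 were higher in quiescent cells and 0 lower, where 45.1% of all genes tested were higher and 37.2% lower. The median log2 fold change was 2.71 over the 35 genes and 0.14 over all genes. The exceptions were both subunits of the V-ATPase: Atp6v1a of its catalytic head, at 87.3 CPM in quiescent and 92.5 in neuroblast-like cells (0.16 ± 0.08, adjusted p = 0.0767 in edgeR), and Atp6v0d1 of its membrane sector, at 112 and 136 (−0.02 ± 0.08, adjusted p = 0.815 in edgeR).

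Quiescent against activated cells showed nearly the same list: 34 of the 35 genes were higher in quiescent cells and 0 lower, where 42.0% of all genes were higher and 31.4% lower. The median was 1.91 over the 35 genes and 0.17 over all genes. Gla, the galactosidase deficient in Fabry disease, was the exception with 10.5 and 12.3 CPM (0.41 ± 0.25, adjusted p = 0.143 in edgeR). The split of all calls depended on the scaling: 57.3% of them were higher in quiescent cells as fitted and 39.0% when sums were scaled to total UMIs, which moved the median of all genes to −0.27. Under that scaling 32 of the 35 genes were still higher in quiescent than activated cells and 1, Npc2, was lower.

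The regulator came first. Tfeb stood at 12.3, 11.7, 16.1 and 11.2 CPM in quiescent cells of the WT libraries (young, old) and then the KO libraries (young, old), at 3.71, 3.16, 3.81 and 2.26 in activated cells, and at 0 to 1.20 in TAP-like and 0 to 0.429 in neuroblast-like cells. No library of one stage overlapped the next from quiescent to TAP-like. The log2 fold change was 2.41 ± 0.23 from activated to quiescent cells (adjusted p = 1.36e-08, edgeR) and 5.55 ± 0.29 from neuroblast-like to quiescent cells (adjusted p = 3.29e-13, edgeR). Only 9 and 12 Tfeb UMIs in all lay behind the TAP-like and neuroblast-like levels. In near-empty droplets, which show free RNA, Tfeb was at 4.19 to 8.78 CPM, above its level in both of these types. It was also above the activated level of the same library in every library. In KO young, at 4.6 against 3.81 CPM, the near-empty level was the lowest nonzero level of any listed gene, so it rested on very few UMIs.

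Proteases had the largest medians among the roles with several genes against neuroblast-like cells and against activated cells. All 10 that were tested were higher in quiescent than in neuroblast-like and than in activated cells, with medians of 3.07 and 2.40, the latter next to 2.38 for lipid handling. Ctso, a cysteine cathepsin, changed most: it stood at 164, 244, 187 and 221 CPM in quiescent cells of the libraries in the order above and at 18.5, 39.0, 19.2 and 32.2 in activated cells. In neuroblast-like cells it was at 1.14, 3.08, 3.06 and 2.88. The quiescent and activated ranges lay far apart (3.45 ± 0.13, adjusted p = 1.87e-14, edgeR), and quiescent exceeded neuroblast-like cells by 6.56 ± 0.17 (adjusted p = 2.39e-17, edgeR).

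Tpp1, the tripeptidyl peptidase mutated in a form of neuronal ceroid lipofuscinosis, stood at 208 to 226 CPM in quiescent libraries, at 37.6 on average in activated cells and at 5.33 to 9.24 in neuroblast-like libraries, ranges that did not overlap. Its log2 fold changes were 3.17 ± 0.15 against activated (adjusted p = 3.64e-13, edgeR) and 5.12 ± 0.17 against neuroblast-like cells. Ctsc, cathepsin C, which activates serine proteases of immune cells, changed by 2.93 ± 0.40 and 5.37 ± 0.44 on the log2 scale but from a low level, 2.75 to 10.9 in quiescent and 0 to 2.27 in activated libraries.

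The classical cathepsins lay close together. Ctsd was at 400, 369, 419 and 355 CPM in quiescent and at 103, 131, 123 and 153 in activated libraries, in the order above (2.06 ± 0.11, adjusted p = 1.09e-12, edgeR). Ctsb, cathepsin B, was at 431 to 465 against 96.0 to 152 (2.29 ± 0.10), and Ctsl, cathepsin L, at 425 to 501 against 99.7 to 165 (2.31 ± 0.11). None of these ranges overlapped. Against neuroblast-like cells the log2 fold changes were 3.12 ± 0.11 for Ctsd, 3.05 ± 0.10 for Ctsb and 2.92 ± 0.11 for Ctsl. Ctsf, Ctsa, Ctsz and Lgmn, a legumain that processes other cathepsins, were higher in quiescent cells in both comparisons too.

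Membrane proteins followed. Lamp1 was at 353, 244, 253 and 250 CPM in quiescent, at 60.5, 73.7, 61.3 and 80.8 in activated and at 26.6 to 37.4 in neuroblast-like libraries. The lowest quiescent value was above every activated value (2.46 ± 0.12, adjusted p = 5.52e-13 in edgeR; 3.31 ± 0.12 against neuroblast-like cells). All 7 membrane proteins tested were called in both comparisons. Cd63 fell from 1050 to 1297 in quiescent libraries through 433 to 719 in activated to 51.3 to 71.5 in neuroblast-like libraries. Laptm4a, Laptm4b, Lamp2 and Scarb2, the receptor that carries glucocerebrosidase to lysosomes, were among them. The smallest difference from activated cells was that of Mcoln1, the calcium channel mucolipin 1, at 14.0 against 8.73 (1.09 ± 0.17).

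Lipid handling was uneven. Psap was at 779 to 975 CPM in quiescent and 168 to 266 in activated libraries (2.38 ± 0.12, adjusted p = 5.28e-13, edgeR). Npc1, the membrane member of the pair that exports cholesterol from lysosomes, was at 43.0 to 54.2 against 6.38 to 13.7 (2.87 ± 0.17). Its soluble partner Npc2 was nearly even: 268 to 311 in quiescent, 288 to 352 in activated and 278 to 327 in neuroblast-like libraries. Npc2 was called higher in quiescent cells by 0.20 ± 0.09 in both comparisons (adjusted p = 0.0477 and 0.0492, edgeR), but its CPM was lower in quiescent than in activated cells in 4 of 4 libraries, and scaling to total UMIs turned both differences, to −0.23 against activated and −0.05 against neuroblast-like cells.

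Glycosidases had medians of 2.69 against neuroblast-like and 1.41 against activated cells, with 8 and 7 of 8 called (Gaa, Glb1, Gusb, Hexa, Man2b1, Manba and Neu1 in both). Lipa and Ppt1 were called in both as well. Gusb averaged 23.9 CPM in quiescent and in activated cells alike, so that its difference there appeared only after the TMM scaling. Acidification had the smallest medians, 0.16 and 0.76. Atp6ap1, an accessory subunit of the V-ATPase, was the only acidification gene called against neuroblast-like cells, with 59.5 to 96.2 against 22.7 to 47.9 CPM (1.36 ± 0.10). Grn, the secreted precursor of granulins, was at 61.5 to 79.1 in quiescent and 23.3 to 28.4 in activated libraries (1.91 ± 0.12).

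**Figure D3:**
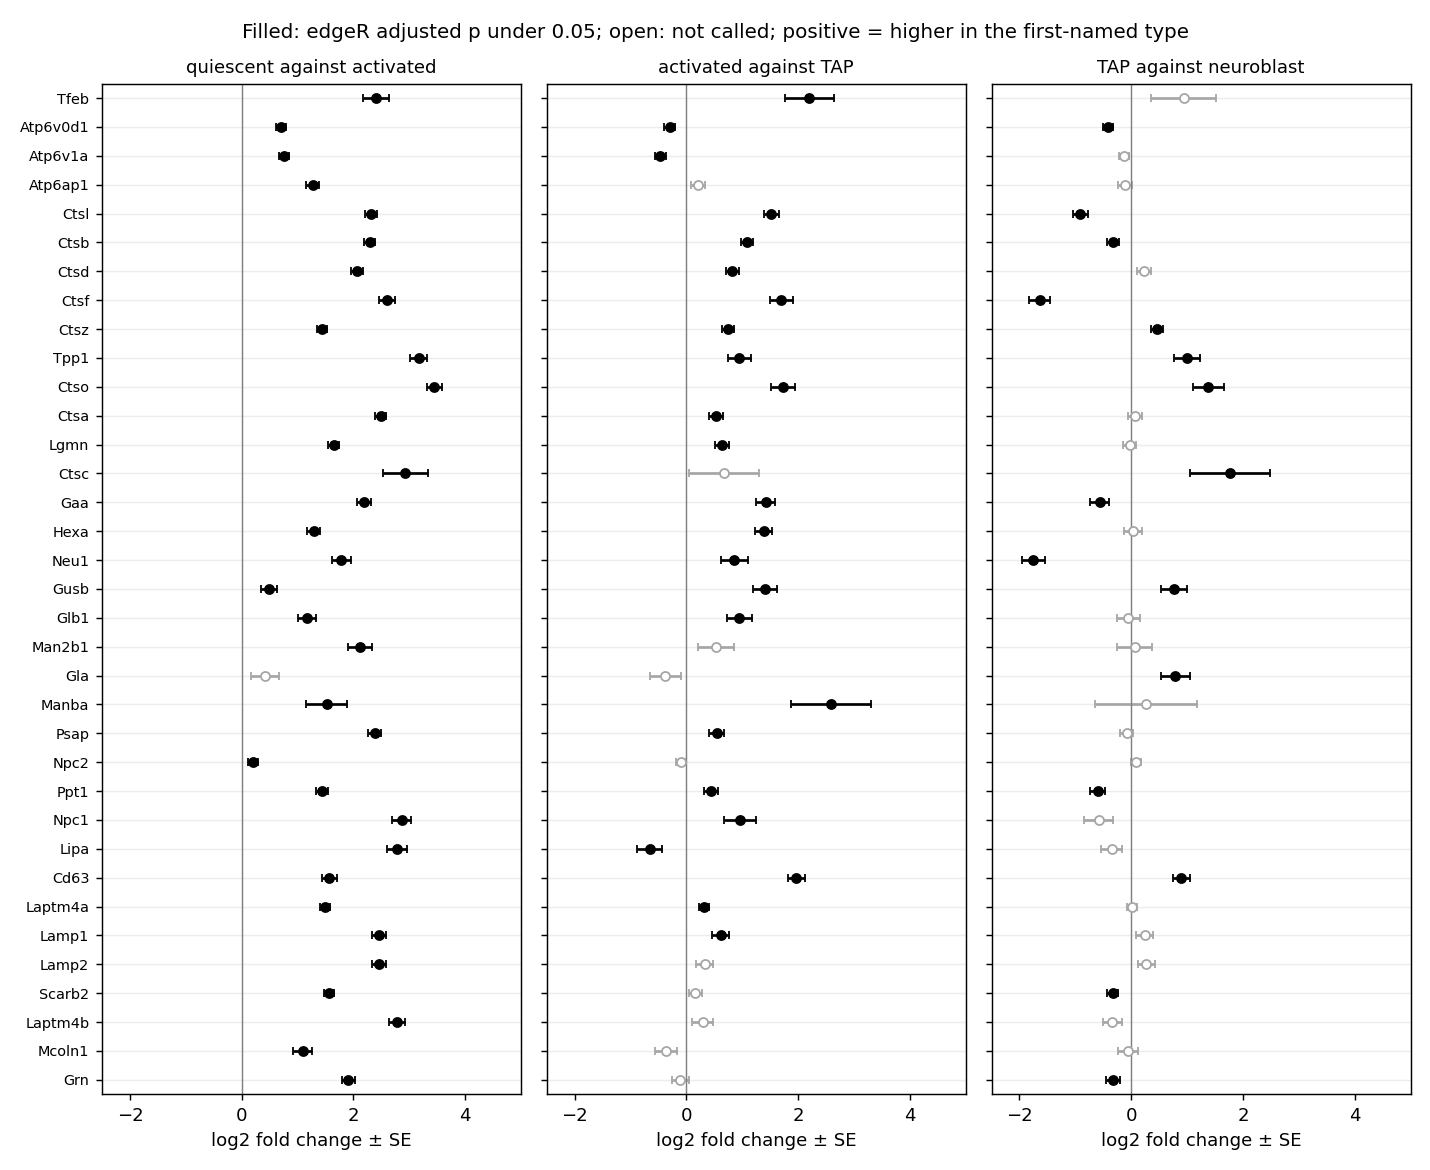
Log2 fold change with standard error of the 35 genes tested at 3 steps between neighbouring types, from quiescent to neuroblast-like cells, grouped by role. The order is that presumed for the lineage, and descent from the quiescent class was not shown. Filled points passed an edgeR adjusted p of 0.05. Most points lie right of 0 in the left panel (34 called), fewer in the middle (22 higher, 3 lower) and few on either side in the right (7 higher, 9 lower).

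At the step from activated to TAP-like cells 22 of the 35 genes were higher in activated cells and 3 lower, where 23.1% of all genes were higher and 25.2% lower. The median was 0.64 over the 35 genes and 0.01 over all genes. Scaling to total UMIs gave 26 higher and 0 lower, and moved the share of higher genes among all calls from 47.9% to 69.9%. This step also rested on where activated cells begin: at a coarser clustering, with 527 in place of 1022 activated cells, 7 genes were higher and 6 lower.

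Manba, a beta-mannosidase, led with 1.03, 1.05, 3.36 and 3.39 CPM in activated and 0 to 1.20 in TAP-like libraries, ranges that overlapped (2.59 ± 0.71, adjusted p = 0.00510, edgeR), on 27 and 4 UMIs in all. Tfeb followed by 2.20 ± 0.44 (adjusted p = 0.000414, edgeR) and Cd63 by 1.97 ± 0.16, with 433 to 719 against 62.5 to 136. Ctsl (1.52 ± 0.14), Ctsb (1.09 ± 0.11), Ctsd (0.82 ± 0.12) and Lamp1 (0.61 ± 0.15) were also higher in activated cells. The others called higher were Ctso, Ctsf, Gaa, Gusb, Hexa, Npc1, Glb1, Tpp1, Neu1, Ctsz, Lgmn, Psap, Ctsa, Ppt1 and Laptm4a. Of all 22, Lamp1, Laptm4a, Ppt1, Psap and Tpp1 turned negative with the coarser clustering.

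Lower in activated than in TAP-like cells were Lipa, the acid lipase of lysosomes (−0.66 ± 0.23, adjusted p = 0.0234, edgeR), Atp6v1a (−0.47 ± 0.10, adjusted p = 0.000715) and Atp6v0d1 (−0.30 ± 0.10, adjusted p = 0.0183). Lipa was at 2.11 to 7.62 in activated and 6.02 to 9.30 in TAP-like libraries, which overlapped, though the activated value was the lower in each library. Atp6v0d1 was at 95.2 and 94.8 CPM, nearly equal, so that its change appeared only after the TMM scaling.

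Between TAP-like and neuroblast-like cells the list was called in both directions, as all genes were. Of the 35 genes 7 were higher in TAP-like cells and 9 lower, where 27.7% of all genes were higher and 24.7% lower, with a median of −0.03 against 0.01 over all genes. Without the WT young library 9 genes were called and without KO young 10. Ctsc (1.77 ± 0.72, adjusted p = 0.0467, edgeR), Ctso (1.38 ± 0.28) and Tpp1 (1.00 ± 0.23) led the genes higher in TAP-like cells, and Ctsc there rested on 11 and 7 UMIs; Cd63, Gla, Gusb and Ctsz were the others. Higher in neuroblast-like cells were Neu1, the sialidase, at 19.0 to 21.3 against 5.26 to 9.27 (−1.75 ± 0.21, adjusted p = 8.38e-07, edgeR), Ctsf at 43.7 to 50.8 against 10.5 to 30.1 (−1.64 ± 0.19) and Ctsl at 54.4 to 79.2 against 27.8 to 45.8 (−0.91 ± 0.14). The ranges of all 3 were separate. Ppt1, Gaa, Atp6v0d1, Scarb2 and Grn were lower in TAP-like cells too. Ctsb was lower in TAP-like cells by 0.32 ± 0.11 on the log2 scale, while Tfeb (0.94 ± 0.58), Ctsd (0.23 ± 0.12) and Lamp1 (0.24 ± 0.15) did not pass.

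Over the 3 steps, 11 genes were higher at both early steps and not called at the last, among them Tfeb, Ctsd, Psap, Npc1 and Lamp1. Another 6 were higher at both and lower in TAP-like than neuroblast-like cells: Ctsb, Ctsf, Ctsl, Gaa, Neu1 and Ppt1. Ctso, Ctsz, Tpp1, Gusb and Cd63 were called higher at every step, Gusb at the first only after the TMM scaling. These patterns depend on the clustering: at the middle step Tpp1, Psap, Lamp1, Laptm4a and Ppt1 turned negative with the coarser one.

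The 12 genes with CACGTG in their window had a median log2 fold change of 1.85 between quiescent and activated cells, with 11 called, and the 20 tested without it 1.68, with 20 called. Against neuroblast-like cells the medians were 2.46 and 2.69. Atp6v0d1 and Atp6v1a, which carry TCACGTGA, were those not called in the latter comparison, and Gla, which carries 2, was the exception in the former.

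A wider list of 74 lysosomal genes behaved likewise in part. Against neuroblast-like cells 58 of 69 tested were higher in quiescent cells and 7 lower (median 1.73), where 45.1% and 37.2% of all genes were. Against activated cells 63 were higher and 1 lower (median 1.41), where 42.0% and 31.4% of all genes were. By sublist against neuroblast-like cells, 22 of 23 other hydrolases, 12 of 13 other membrane proteins, 6 of 7 sorting genes and 8 of 10 genes of the TFEB family and the Ragulator complex were higher. Of 16 further V-ATPase subunits 10 were higher and 4 lower, where 45.1% and 37.2% of all genes were. Pla2g7, a phospholipase better known as a secreted enzyme, changed most at 1760 against 9.21 CPM (7.87 ± 0.19), and Atp6v1g1, a V-ATPase subunit, fell most, at 238 against 474 (−0.75 ± 0.08). Against activated cells Pla2g7 (6.45 ± 0.18) and Cd68, a membrane protein of phagocyte lysosomes at 0.949 against 7.64 CPM (−2.41 ± 0.35), marked both ends. From activated to TAP-like cells 27 of 69 were higher and 9 lower, where 23.1% and 25.2% of all genes were. They were led by Mitf, a relative of TFEB (2.41 ± 0.50), and Atp6ap2, another accessory subunit (−0.90 ± 0.10). From TAP-like to neuroblast-like cells 13 were higher and 20 lower, where 27.7% and 24.7% of all genes were. Galc stood at 1.71 ± 0.22 and Pla2g15 at −1.11 ± 0.28.

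The eYFP-rich cluster summed to 6620 ± 273 CPM. Quiescent NSC-like cells, at 7119 ± 316, were higher in each library, though the ranges overlapped. The wider list summed to 5552 ± 210 in the eYFP-rich cluster against 7811 ± 235. Its other hydrolases summed to 1566 ± 151 against 3497 ± 152, of which Pla2g7 alone made up 397 and 1760. Against activated cells 27 of 33 genes tested were higher in the eYFP-rich cluster and 0 lower, where 30.6% of all genes were higher and 30.5% lower. The median was 1.27 over the 33 genes and −0.01 over all genes. Ctso led (169 against 27.2 CPM; 2.84 ± 0.15, adjusted p = 1.15e-13, edgeR), followed by Tfeb (18.8 against 3.23; 2.56 ± 0.31) and Psap (842 against 225; 2.06 ± 0.12). Ctsb, Ctsl and Lamp1 were each higher by 1.84 and Ctsd by 1.24 ± 0.11. The 6 genes not called were Npc2, Gusb, Mcoln1, Man2b1, Glb1 and Gla. Of the wider list 40 of 67 were higher and 1, Cd68, lower (−1.63 ± 0.43), with Pla2g7 at 3.89 ± 0.19.

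Within the 8 mice, the eYFP-rich cluster and the other quiescent vSVZ cells, 541 and 1435 cells with a hashtag, were compared with the mouse as a block. Of 32 genes tested 16 were lower in the eYFP-rich cluster and 1 higher, where 19.8% of all genes were lower and 19.9% higher. The median was −0.29 over the 32 genes and 0.02 over all genes. Scaling to total UMIs gave 13 lower and 3 higher and moved the share of higher genes among all calls from 50.1% to 65.1%.

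Tpp1 was at 109 and 90.3 (WT young), 79.9 and 133 (WT old), 101 and 95.6 (KO young) and 116 and 90.7 (KO old) CPM in the eYFP-rich cluster. In the other quiescent cells of the 8 mice it was at 177 to 239, without overlap (−1.23 ± 0.10, adjusted p = 2.26e-14, edgeR). Man2b1, a mannosidase, was at 0 to 14.0 against 12.9 to 22.0 (−1.22 ± 0.32, adjusted p = 0.00169, edgeR), and Lipa at 0 to 31.2 against 15.5 to 34.3 (−1.21 ± 0.25). Man2b1 was lower in 8 of 8 mice and Lipa in 7 of 8, yet the ranges overlapped. Ctsd was at 173 to 291 against 345 to 423, again without overlap (−0.62 ± 0.08).

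Lamp1 (−0.42 ± 0.08), Ctsl (−0.25 ± 0.07) and Ctsb (−0.23 ± 0.07) were lower by less, with overlapping ranges, and Laptm4b, Neu1, Ctsa, Npc1, Ctsf, Grn, Lamp2, Ctso and Atp6v1a were lower as well. Ppt1, the thioesterase that removes palmitate from proteins, was the gene called higher, at 113 to 154 against 75.7 to 122 CPM (0.30 ± 0.10, adjusted p = 0.0155, edgeR) and in 8 of 8 mice, but it stood at −0.03 with the coarser clustering. Tfeb, at 11.2 to 25.5 against 8.09 to 22.6 CPM (0.38 ± 0.25), did not pass. Beside these values, the 8 quiescent markers summed to 14184 to 20844 CPM in the eYFP-rich cluster and 22411 to 25953 in the other cells. Markers of ensheathing glia summed to 479 to 1162 against 62.9 to 116, those of activated NSCs to 732 to 1159 against 260 to 442, and those of neuroblasts to 173 to 603 against 97.5 to 227. The part of these differences in the results was not tested. In the wider list 26 of 63 were lower, most of all Pla2g7 (−2.16 ± 0.10), and 2 higher, led by Arsb (0.59 ± 0.19). Of all genes 19.8% were lower and 19.9% higher.

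Microglia-like cells served as a reference rich in lysosomes. Of the 38 genes 22 were higher than in quiescent cells and 7 lower, where 27.4% of all genes were higher and 37.9% lower. The median was 0.78 over the 38 genes and −0.24 over all genes. Both the count and the median include Ctss, Laptm5 and Ctsh, which passed the low-count filter here only through their microglial counts. Their direction was thus set in advance and adds no support. Without Ctss and Laptm5 the list summed to 23649 CPM in microglia-like and 7118 in quiescent cells. In microglia 48.8% of the UMIs of the list came from Ctsd (20.5%), Ctss (18.7%) and Lgmn (9.66%).

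Laptm5, a lysosomal membrane protein, was at 1781 to 2151 CPM in microglia-like and 0 to 0.528 in quiescent libraries (12.15 ± 0.25). Ctss, cathepsin S of antigen-presenting cells, was at 5137 to 6477 against 0.263 to 2.31 (12.14 ± 0.26), and Ctsh at 603 to 713 against 0.616 to 1.97 (9.03 ± 0.20). In quiescent cells these levels rested on 13, 43 and 39 UMIs in all, and Ctss stood at 28.6 to 100 CPM in near-empty droplets. Ctsh was also at 183 to 212 in olfactory ensheathing glia-like cells.

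Ctsd was at 5781 to 6953 CPM in microglia-like cells (3.90 ± 0.16 against quiescent cells), Ctsb at 1724 to 2151 (1.93 ± 0.14), Ctsl at 1627 to 1987 (1.85 ± 0.14) and Tfeb at 36.3 to 53.6 (1.65 ± 0.27), each above every quiescent library. Lower in microglia were Laptm4b (23.4 against 81.9; −1.98 ± 0.23, adjusted p = 5.47e-15, edgeR), Ctso (61.6 against 204; −1.69 ± 0.17) and Npc1 (17.8 against 50.1; −1.61 ± 0.27), besides Cd63, Laptm4a, Gaa and Lamp1. The other genes called higher were Ctsc, Lgmn, Man2b1, Grn, Gusb, Ctsz, Hexa, Ctsa, Lipa, Npc2, Neu1, Ppt1, Atp6ap1, Psap and Scarb2. Lamp1 was at 193 to 283 against 244 to 353 (−0.46 ± 0.14, adjusted p = 0.00221, edgeR), lower in 4 of 4 libraries. Among the 8 membrane proteins 2 were higher and 4 lower, near the 27.4% and 37.9% of all genes. Of the wider list 32 of 70 were higher, led by Cd68 (592 against 0.949; 9.03 ± 0.20), and 17 lower, led by Pla2g7 (11.2 against 1760; −7.46 ± 0.24), against the same shares of all genes.

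**Figure D4:**
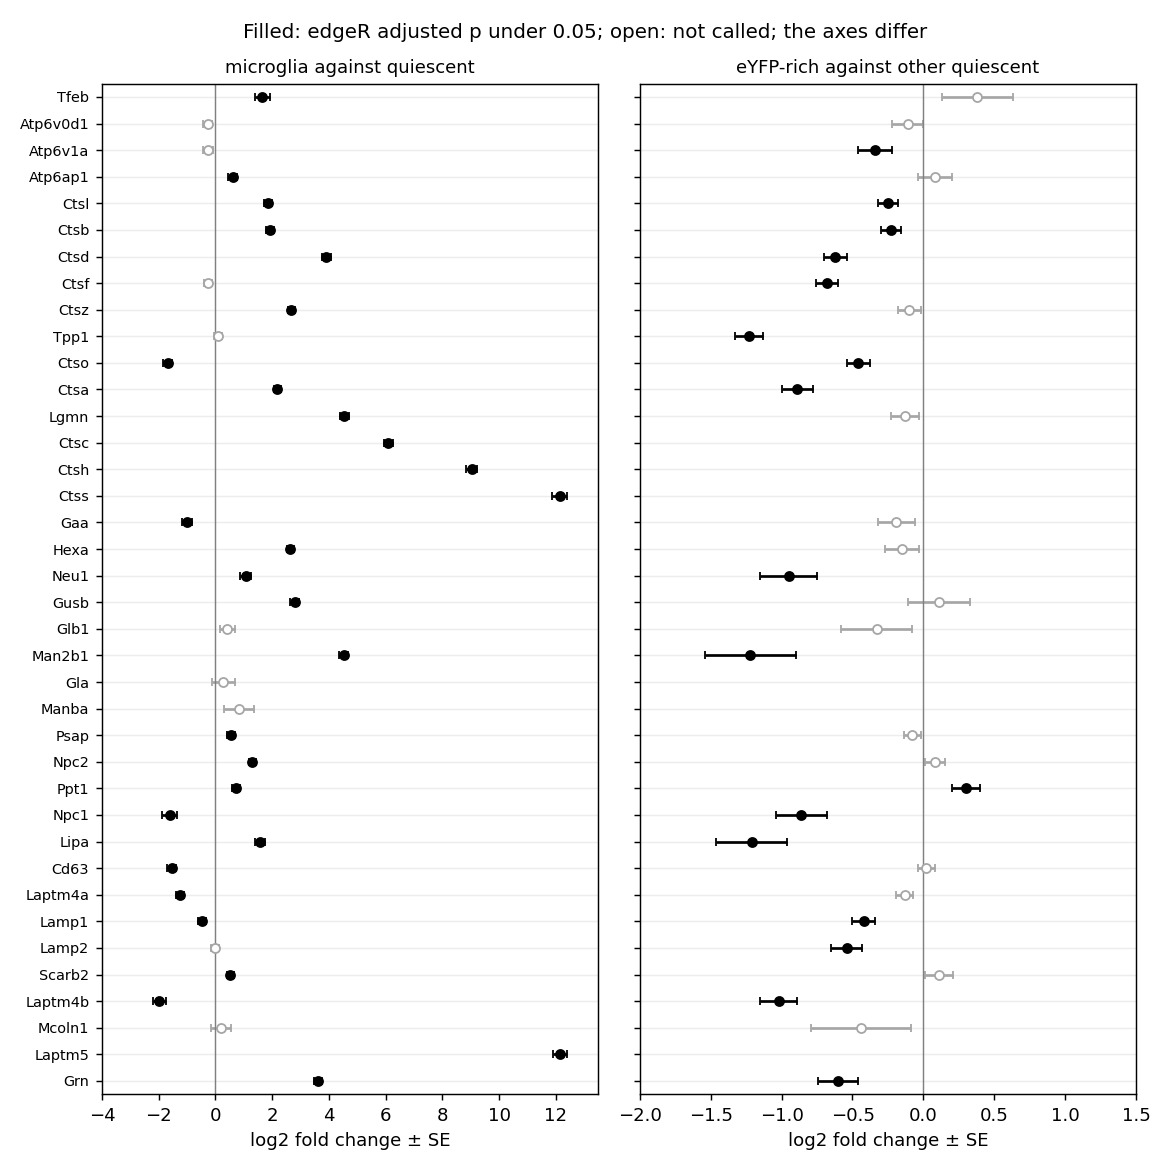
Log2 fold change with standard error of the genes tested in microglia-like against quiescent cells (left) and in the eYFP-rich cluster against other quiescent cells (right), on axes of different width. Filled points passed an edgeR adjusted p of 0.05. Ctss, Laptm5 and Ctsh stand far right in the left panel, and Tpp1, Man2b1 and Lipa far left in the right panel.

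Age and receptor genotype were compared over mice, 2 per group, in quiescent vSVZ cells (81 to 280 cells per mouse). The comparison of ages in WT and that of genotypes in young mice share the WT young mice, and the other pairs share groups in the same way. Values are given as WT young, then WT old, then KO young, then KO old, with both mice of each group.

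With age in WT mice 1 of 34 genes tested rose and 4 fell, where 4.7% of all genes were called in either direction. The median was −0.05 over the 34 genes and 0.02 over all genes. Of all calls 36.6% were rises, and 54.7% with scaling to total UMIs.

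Lamp1 was at 336 and 336, 276 and 225, 246 and 279, and 239 and 260 CPM. The WT young mice stood above all 6 others (−0.51 ± 0.12 with age in WT, adjusted p = 0.0133, edgeR). Atp6ap1 was at 88.4 and 107, 63.6 and 62.9, 64.3 and 74.1, and 62.6 and 65.2, with the same order of groups (−0.71 ± 0.19, adjusted p = 0.0242, edgeR). Cd63 was at 1205 and 1301, 1000 and 1078, 1066 and 1062, and 1106 and 1183 (−0.33 ± 0.09, adjusted p = 0.0258, edgeR).

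For all 3 genes WT young was the highest group. Across all cell types with 4 libraries, the WT young library was the highest of the 4 for Atp6ap1 in 8 of 8 types, for Lamp1 in 6 of 8 and for Cd63 in 6 of 8, and its own reaction and chase time cannot be told apart from age.

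Ctso rose, at 164 and 171, 258 and 244, 194 and 214, and 216 and 230 CPM (0.51 ± 0.13, adjusted p = 0.0205, edgeR). The WT old mice were the highest of all, and the WT old library was the highest in 6 of 8 types. Ctsc fell by 4.15 ± 1.16 on the log2 scale (adjusted p = 0.0308, edgeR) but on 9 UMIs in WT young and 1 in WT old mice, a ratio of 21.7 per UMI sequenced with a 95% exact interval of 3.0 to 949 that covers counting error only. In KO mice the counts were 20 and 8, a ratio of 3.62 (interval 1.53 to 9.5), and this change was not called.

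Tfeb (0.31 ± 0.55), Ctsd (−0.03 ± 0.11), Ctsb (0.05 ± 0.11) and Ctsl (−0.12 ± 0.11) did not pass with age in WT. Ctsd was at 345 and 366 in WT young and 354 and 371 in WT old mice, which overlapped.

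With age in KO mice Npc1 rose and Psap fell among the 34 genes, where 1.89% of all genes were called. Npc1 was at 46.4 and 35.7, 41.6 and 49.3, 28.0 and 34.6, and 55.8 and 52.2 CPM (0.76 ± 0.21, adjusted p = 0.0442, edgeR). Psap was at 663 and 887, 743 and 775, 964 and 953, and 734 and 772 (−0.37 ± 0.10, adjusted p = 0.0358, edgeR). The KO young mice were lowest for Npc1 and highest for Psap, and the KO young library was the highest for Psap in 6 of 8 types. Tfeb (−0.59 ± 0.37), Lamp1 (−0.09 ± 0.11), Ctsd (−0.24 ± 0.09), Ctsb (−0.13 ± 0.09) and Ctsl (−0.16 ± 0.10) did not pass.

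None of these 7 calls held whichever mouse was left out. Without WT old mouse 1 only Lamp1 was called with age in WT, without WT young mouse 1 Atp6ap1 and Cd63, and without either of the remaining WT mice 0 genes. With age in KO, Psap was called without KO old mouse 2, and 0 genes without any of the other 3 KO mice. With hashtags called more strictly both counts were 0, and DESeq2 called 3 (Cd63, Ctso, Lamp1) and 1 (Psap).

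Between genotypes edgeR called 0 of the 34 genes in young mice, where 0.817% of all genes were called, and 0 in old mice, where 0.17% were. At an unadjusted p under 0.05 there were 9 and 2 genes, and DESeq2 called 0 in both. Counts at an unadjusted p, here and below, are given without the share of all genes and are not read as a result about the list. The split of all calls in old mice moved from 50% to 31.2% higher with scaling to total UMIs. The difference of the age changes between genotypes was called for 0 of 34 genes (6 unadjusted, 0 by DESeq2), where 0.392% of all genes were. For Lamp1 this difference was 0.41 ± 0.17 (adjusted p = 0.354, edgeR). Of the wider list only Atp6v1g1 was called, with age in WT, where 4.7% of all genes were (226 against 320 CPM in old and young; −0.55 ± 0.12, adjusted p = 0.00606, edgeR).

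**Figure D5:**
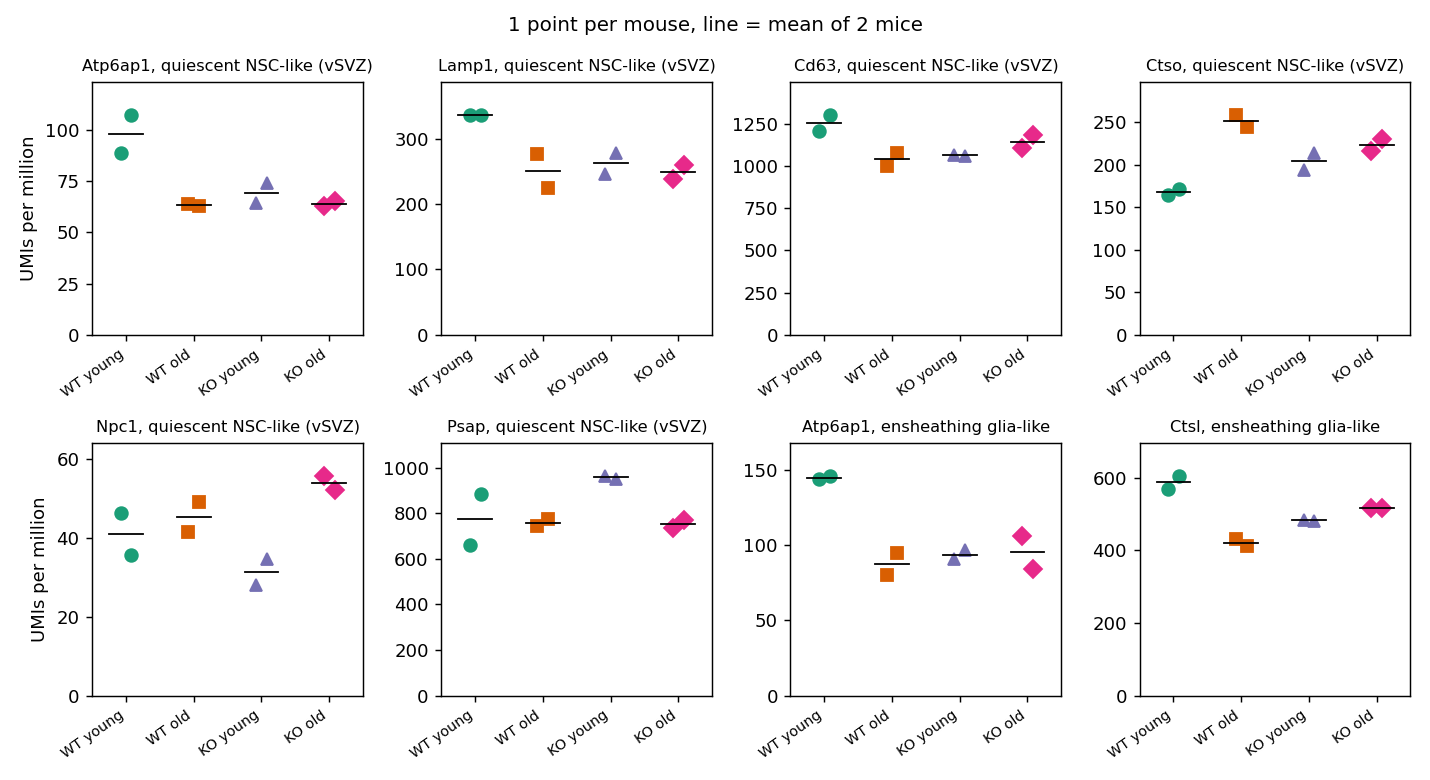
CPM of the genes called with age, 1 point per mouse and a line at the mean of 2 mice, for 6 genes in quiescent vSVZ cells and 2 in olfactory ensheathing glia-like cells (Ctsc, at 0 to 8.57, is not drawn). WT young mice are highest for Atp6ap1, Lamp1 and Cd63 in quiescent cells and for Atp6ap1 and Ctsl in ensheathing glia.

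In the eYFP-rich cluster (30 to 128 cells per mouse) edgeR called 0 of 26 genes in any comparison over mice. The share of all genes called was 1.39% with age in WT, 0.459% with age in KO, 0.295% for genotype in young, 0.0492% in old mice and 0.082% for the difference. At an unadjusted p there were 3, 1, 2, 2 and 2 genes, and DESeq2 called 0 in each. Atp6ap1 came nearest, at 149 and 126, 75.7 and 66.7, 63.3 and 76.5, and 78.0 and 70.9 CPM in the same order of groups. The WT young mice were again the highest.

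In microglia-like cells only the genotypes of young mice could be compared, since 1 old mouse of each genotype had 16 or 5 cells. Of 33 genes 0 were called by edgeR (2 unadjusted, 0 by DESeq2), where 0.573% of all genes were. Ctss was at 5609 and 6356 CPM in WT young and 6802 and 6351 in KO young mice. Ctsd was at 7016 and 6939 against 8005 and 6320, and Lamp1 at 245 and 292 against 159 and 205 (−0.60 ± 0.26, adjusted p = 0.550, edgeR).

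Olfactory ensheathing glia-like cells (68 to 338 per mouse) were compared in the same way. Of 35 genes 0 rose and 2 fell with age in WT, where 2.02% of all genes were called. Atp6ap1 was at 144 and 146, 80.1 and 94.5, 90.8 and 96.8, and 106 and 84.4 CPM in the same order of groups (−0.77 ± 0.17, adjusted p = 0.0302, edgeR). Ctsl was at 570 and 605, 431 and 412, 485 and 481, and 518 and 518 (−0.51 ± 0.11, adjusted p = 0.0211, edgeR). Both were again highest in WT young mice.

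Without WT young mouse 1 Ctsl was still called, and without any of the other 3 WT mice 0 genes were. Lamp1 was at 482 and 468, 382 and 369, 363 and 382, and 387 and 377 (−0.37 ± 0.11, adjusted p = 0.0917, edgeR), not called although the WT groups did not overlap. The other comparisons in these cells each called 0 of 35 genes in edgeR, where 0.278% of all genes were called with age in KO, 0.575% between genotypes in young and 0.387% in old mice. The difference of the age changes was called for 0% of all genes. At an unadjusted p there were 2, 4, 6 and 5 of the 35 genes, and DESeq2 called 0, 0, 0 and 2, the latter being Ctsl and Cd63.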

How the data were processed

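The matrix deposited by the authors holds UMI counts, made with kallisto and bustools, and the submitters' processing notes name GRCm38 and Scanpy 1.6.0; antibody hashtags came as deposited counts too. Retained cells had 100 to 6000 genes, between 1000 and 20000 UMIs, and mitochondrial UMIs below 10%, after 1.03% to 2.67% per library were removed as predicted doublets. Of these, 60 share a barcode with a cell of another library. Hashtags were called with a multinomial mixture, and clusters came from leidenalg 0.10.2 (resolution 1, 2000 variable genes, 50 components; lysosomal and interferon genes left out). UMIs were summed per type and library or mouse, with at least 20 cells, and tested with edgeR 4.0.16 (filterByExpr, TMM, quasi-likelihood, Benjamini-Hochberg adjusted p under 0.05 over all genes); DESeq2 1.42.0 was an alternative. The tests were tried on simulated data. The 38 genes and the wider list were chosen with earlier results of these data known. In each comparison the genes past the threshold were named, with full values for the 3 largest changes in each direction and for Tfeb, Lamp1, Ctsd, Ctsb and Ctsl. The eYFP-rich comparisons against activated cells and over mice were added after seeing the data. Exons of 11 genes, among them Ctsb, Ctsd, Ctsl and Lamp1, overlap another gene in GENCODE vM21, and how shared reads were assigned is not given in the sources used here. Nothing but the hashtag labels says that the mice of a group were handled apart.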

Additional observations from a re-analysis of the deposited data

How the results depend on the processing

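No paired analysis was possible because, between ages or genotypes, hashtag numbers are reused for unrelated mice from group to group; comparisons of types had the library or mouse as a block. The planned fit without the eYFP-rich cluster equals the one reported, since the naming rule had left that cluster out; fits with it, and scaling to total UMIs, were added after seeing the data. Of 190 values called and named, 43 lost the call under at least 1 alternative, 130 of 2077 alternative values in all, and 8 changed sign. With scaling to total UMIs Npc2 turned to −0.05 (quiescent against neuroblast-like) and −0.23 (against activated). At the coarser clustering, activated against TAP-like cells gave 13 in place of 25 calls and turned Lamp1 (−0.04), Laptm4a (−0.26), Ppt1 (−0.35), Psap (−0.36) and Tpp1 (−0.41), and Ppt1 turned to −0.03 in the eYFP-rich cluster; the cause was not tested. With age in quiescent cells of WT mice 3 genes were called by DESeq2 and 0 with strict hashtags, in place of 5; in KO mice 1 by DESeq2, 1 at the coarser clustering and 0 with strict hashtags, in place of 2. Where the reported count was 0, 1 gene was called for genotype in young quiescent cells without the low-count filter and 1 with the eYFP-rich cluster, 1 in the eYFP-rich cluster for age in WT at the coarser clustering and 1 for genotype in young mice without the filter, at the coarser clustering or without cells holding a microglial UMI, and 2 for the difference in ensheathing glia by DESeq2, where Ctsl was at 0.64. Without 1 library or mouse the counts ranged from 9 to 16 for TAP-like against neuroblast-like cells, from 0 to 2 for age in WT and 0 to 1 for age in KO, genotype in young and the difference in quiescent cells, and from 0 to 1 for age in WT in ensheathing glia; a lone mouse was assumed to vary like the other groups. Counts over all genes moved by more than 1.5 times: activated against TAP-like 3690 to 6383 (6181 reported), and in quiescent cells age in WT 110 to 1633 (443), age in KO 31 to 498 (178), genotype in young 22 to 276 (77) and in old 7 to 58 (16), and the difference 4 to 103 (37). In the same order they were 24 to 108 (85), 12 to 69 (28), 3 to 38 (18), 1 to 32 (3) and 1 to 17 (5) in the eYFP-rich cluster and 0 to 430 (204), 0 to 183 (28), 22 to 188 (58), 20 to 117 (39) and 0 to 70 (0) in ensheathing glia, and 1 to 32 (26) for genotype in young microglia. Scaling to total UMIs moved the higher share of all calls from 70.6% to 56.6% (age in WT), 64.3% to 54.2% (age in KO) and 66.7% to 50% (genotype in old) in the eYFP-rich cluster, and from 46.2% to 59.4% in microglia. With 2 mice a group, lowly counted genes had wide errors, as Tfeb with age in WT (0.31 ± 0.55). The planned comparisons of age and of genotype in old mice in microglia, and their difference, could not be fitted.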
